A study of Mus musculus with 24 samples.

Results

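Oxidative phosphorylation genes were followed in human myeloma tumours grown in mice and treated with filanesib, pomalidomide and dexamethasone, alone and together. The members were taken by gene symbol: names beginning NDUFA, NDUFB, NDUFC, NDUFS or NDUFV, the SDHA to SDHD genes, names beginning UQCR, names beginning COX4 to COX8, and names beginning ATP5. Among 14884 named genes on the array, 30 carried such a symbol. The genes were chosen by name, and a gene's probe set, where it had several, by the highest mean over the 24 arrays.

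The electron transport chain of the inner mitochondrial membrane passes electrons through complexes I to IV to oxygen and pumps protons on the way, and complex V uses the proton gradient to make ATP. Complex III carries electrons from ubiquinol to cytochrome c, and complex IV, cytochrome c oxidase, hands them to oxygen. The subunits of complexes I, III, IV and V come from the nuclear and the mitochondrial genomes, and several complex IV subunits exist as a common form and as a form restricted to certain tissues.

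The name of the group covers more than the genes found. Complex IV gave 17 members: 10 common subunit isoforms, 6 tissue-restricted isoforms and COX7A2L, a factor that helps complexes III and IV join into supercomplexes. Complex III gave 6 members. They were the core proteins UQCRC1 and UQCRC2, UQCRB, the hinge protein UQCRH, its intronless gene copy UQCRHL and the pseudogene UQCRBP1. Complex V gave 3 members, the inhibitor ATP5IF1 and the small membrane subunits ATP5MJ and ATP5MK. The 4 members filed under complex I were no subunits: NDUFAF7 and NDUFAF8 are assembly factors, and NDUFA6-DT and NDUFB2-AS1 are non-coding RNAs. Complex II had 0 members. Subunits such as SDHA, SDHB, SDHC, SDHD, NDUFS1, NDUFV1, UQCRFS1 and ATP5F1A, and the mitochondrially encoded subunits, were not analysed here. The results therefore describe complex IV, part of complex III and a few genes of complex V, with 22 of the 30 members being enzyme subunits.

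The tumours were plasmacytomas raised under the skin of CB17-SCID mice, a strain without mature T and B cells, from MM.1S, 1 human multiple myeloma cell line. The 8 groups held 3 arrays each: filanesib plus pomalidomide plus dexamethasone, pomalidomide plus dexamethasone, filanesib plus pomalidomide, filanesib plus dexamethasone, pomalidomide, dexamethasone, filanesib, and control mice given the PBS vehicle. Doses were 10 mg/kg filanesib, an inhibitor of the kinesin spindle protein, 8 mg/kg pomalidomide, an immunomodulatory drug that redirects the cereblon ubiquitin ligase, and 0.5 mg/kg dexamethasone, a glucocorticoid, for 2 days. Nothing in the labels ties each array to its own animal, so the p-values reflect differences among arrays that may be partly technical. The labels name the mouse as organism while the probe table names human genes. The deposited values describe human transcripts and whatever mouse RNA bound the same probes, and a smaller share of a cell type cannot be told apart from less RNA per cell.

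Values are log2 levels per probe set as deposited, between 1.26 and 13.6 over the table, with array medians from 3.65 to 3.73. Each array correlated with each other array at 0.951 to 0.99. Replicates 1 and 3 of pomalidomide alone stood apart: the SD of genes around their group means was 0.284 on replicate 1, 0.352 on replicate 3 and 0.237 on replicate 2, against 0.155 to 0.221 on the arrays of the other groups. Of 10 listed plasma cell markers 8 were measured. Most were strong, with means over 24 arrays such as 11.06 for MZB1 and 10.07 for SDC1, while POU2AF1 at 4.92 and CD27 at 4.15 were lower. Markers of other tissues mostly lay low, such as 2.53 for the muscle gene MB and 2.32 for each of the fibroblast genes DCN and LUM. Above the array medians lay CD68 at 9.49, ESAM at 7.16, the other measured muscle gene TNNC2 at 4.79, the adipocyte gene PLIN1 at 4.55 and CSF1R at 4.37.

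The group means of the members differed about as widely as those of all genes. Over the 8 groups, a member's highest and lowest group means lay 0.32 log2 apart at the median, against 0.33 for all genes, and the median SD within a group was 0.17 for members and 0.18 for all genes. The narrowest member was COX6B2, the testis form of subunit 6B, with 0.07 between its highest and lowest group means. The widest was UQCRHL with 0.75. In an F test for any difference among the 8 groups (limma, adjusted over all genes), 1 of 30 members passed 0.05, UQCRHL with F 5.38 and adjusted p = 0.0424, beside 2.44% of all genes. At an unadjusted p under 0.05 the share was 16.7% of members, against 15.2% of all genes. UQCRBP1 followed with adjusted p = 0.0753, then COX6A1 with 0.182, ATP5MJ with 0.232 and COX5B with 0.243. The call of UQCRHL was lost in 15 of the 24 fits that left out 1 array. Those arrays were all 3 of control, of filanesib and of dexamethasone, replicates 1 and 3 of filanesib plus dexamethasone, replicate 2 of filanesib plus pomalidomide, replicates 1 and 3 of pomalidomide plus dexamethasone, and replicate 1 of the triple combination.

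The average effect of a drug is the mean of its 4 differences, with minus without it, across the 4 states of the other 2 drugs (its backgrounds), and so sets 12 arrays against 12. Pomalidomide lowered 2 of 30 members, UQCRHL and COX6A1, and raised 0. Over all genes 4.86% passed in either direction and 2.65% fell. Filanesib raised 1 member, the pseudogene UQCRBP1, and lowered 0, beside 1.4% of all genes in either direction and 1.25% higher. Dexamethasone moved 0 of 30 members, where 0.0134% of all genes passed. In limma at an unadjusted p under 0.05, dexamethasone had 2 members, COX7B2 and ATP5MJ (6.67%, against 7.68% of all genes).

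**Figure D1:**
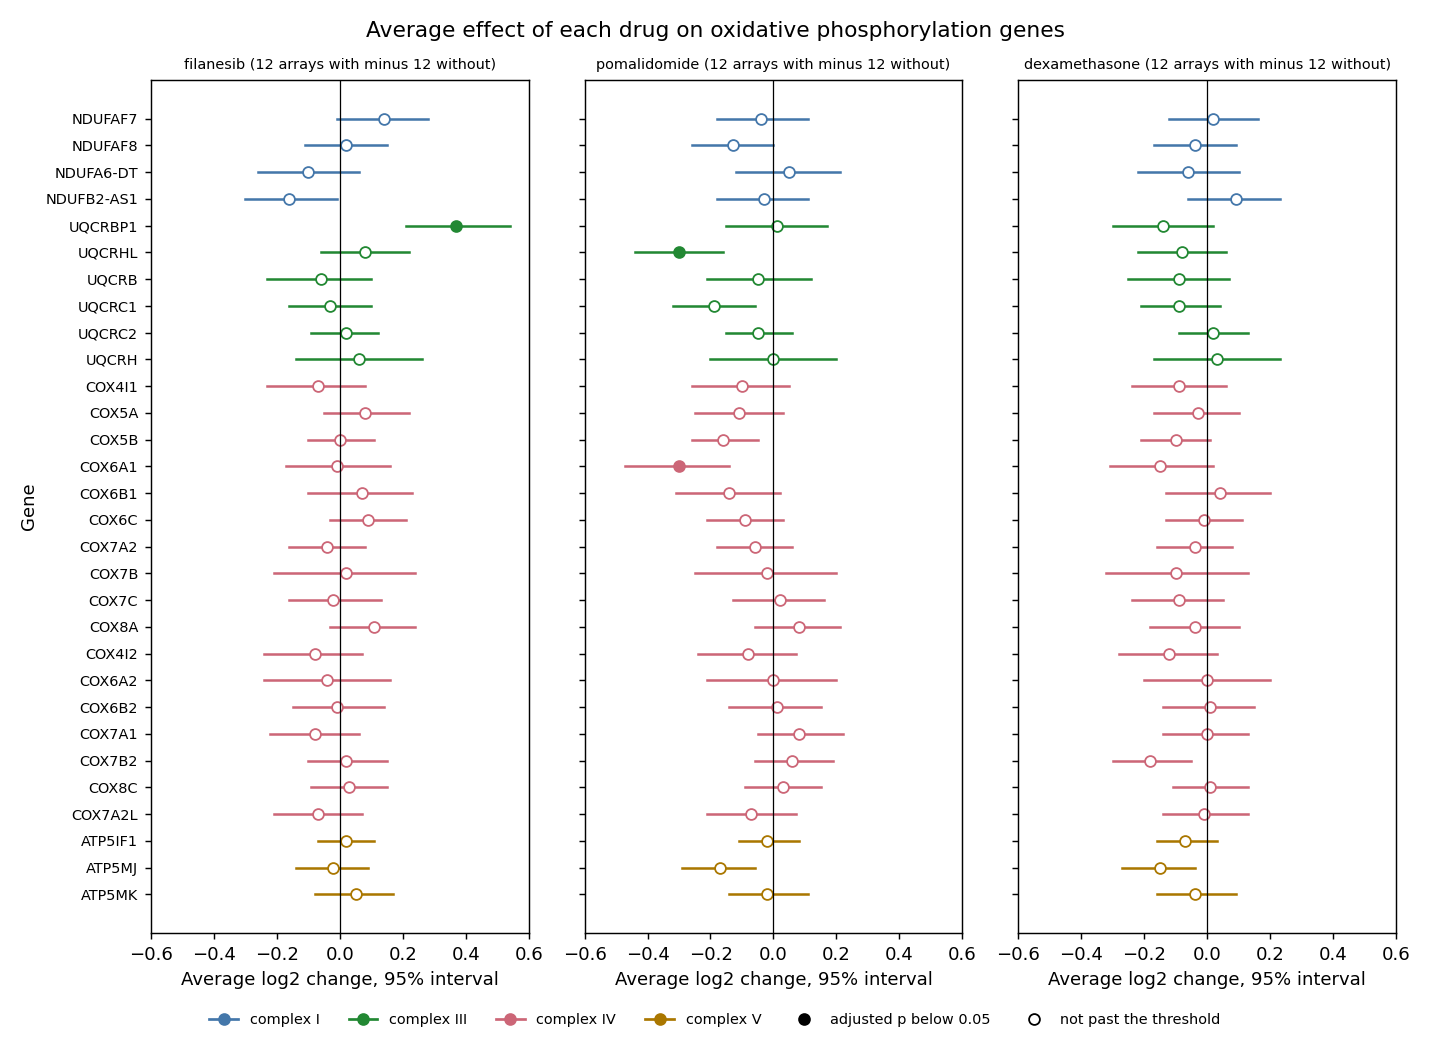
Average log2 change of each of the 30 genes with filanesib, pomalidomide and dexamethasone (12 arrays with the drug minus 12 without; points are estimates, lines 95% intervals, filled points passed an adjusted p of 0.05). Only UQCRBP1 in the filanesib panel and UQCRHL and COX6A1 in the pomalidomide panel are filled.

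For every member and every drug the 95% interval of the average effect stayed within a 1.5-fold change. It stayed within a 1.2-fold change for 26 of 30 members with filanesib, 24 with pomalidomide and 24 with dexamethasone. The median change of the members was -0.04 with pomalidomide, with 22 of 30 negative, against -0.01 and 52.5% negative for all genes. With dexamethasone it was -0.04, with 23 of 30 negative, against 0.00 and 50.4% negative for all genes. With filanesib it was 0.01, with 14 of 30 negative, against 0.00 and 50.8% for all genes.

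In complex III, UQCRHL carried the clearest difference. It is a retrocopy of UQCRH, whose protein sits beside cytochrome c1, and probes for one may also bind transcripts of the other, so its values are uncertain as to source. UQCRHL read 7.42, 7.97 and 7.27 with all 3 drugs, 7.36, 7.54 and 7.32 with pomalidomide plus dexamethasone, 7.07, 7.23 and 7.45 with filanesib plus pomalidomide, and 7.47, 7.33 and 7.45 with pomalidomide. The groups without pomalidomide read 7.74, 7.41 and 7.57 with filanesib plus dexamethasone, 7.57, 7.48 and 7.56 with dexamethasone, 8.09, 8.00 and 7.92 with filanesib, and 7.73, 7.69 and 7.71 in control. The 3 filanesib arrays were the highest of the groups without pomalidomide, and the 12 arrays with pomalidomide overlapped the 12 without it. The average change with pomalidomide was -0.30 ± 0.07 (SE; 95% interval -0.44 to -0.16; 0.813-fold), with limma adjusted p = 0.0121, and the sign was negative in 4 of 4 backgrounds. Those changes were uneven, from -0.02 ± 0.14 beside both other drugs to -0.75 ± 0.14 beside filanesib.

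UQCRH itself showed no such difference at this precision. Its 12 arrays with pomalidomide ran from 4.87 through a median of 5.22 to 5.87, against 5.01, 5.30 and 5.66 without. Its average change was 0.00 ± 0.10 (95% interval -0.20 to 0.20).

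The core protein UQCRC1, which lines the matrix side of complex III, lay next. It read 7.52 at the lowest, 7.83 at the median and 8.11 at the highest of the 12 pomalidomide arrays, against 7.80, 8.02 and 8.20 on the 12 arrays without. Its change of -0.19 ± 0.06 missed the threshold (limma adjusted p = 0.0844). It passed in 2 of the 24 fits that left out 1 array, and adjusted p rose to as much as 0.157 in the others. Leaving out replicate 3 of pomalidomide, which at 8.11 was the highest array with that drug, brought the change to -0.23 and adjusted p = 0.0187. Leaving out replicate 2 of filanesib, at 7.80, brought the change to -0.22 and adjusted p = 0.0308. The partner core protein UQCRC2 averaged -0.05 ± 0.05 and UQCRB, a subunit near the ubiquinone site, -0.05 ± 0.08, neither past the threshold.

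**Figure D2:**
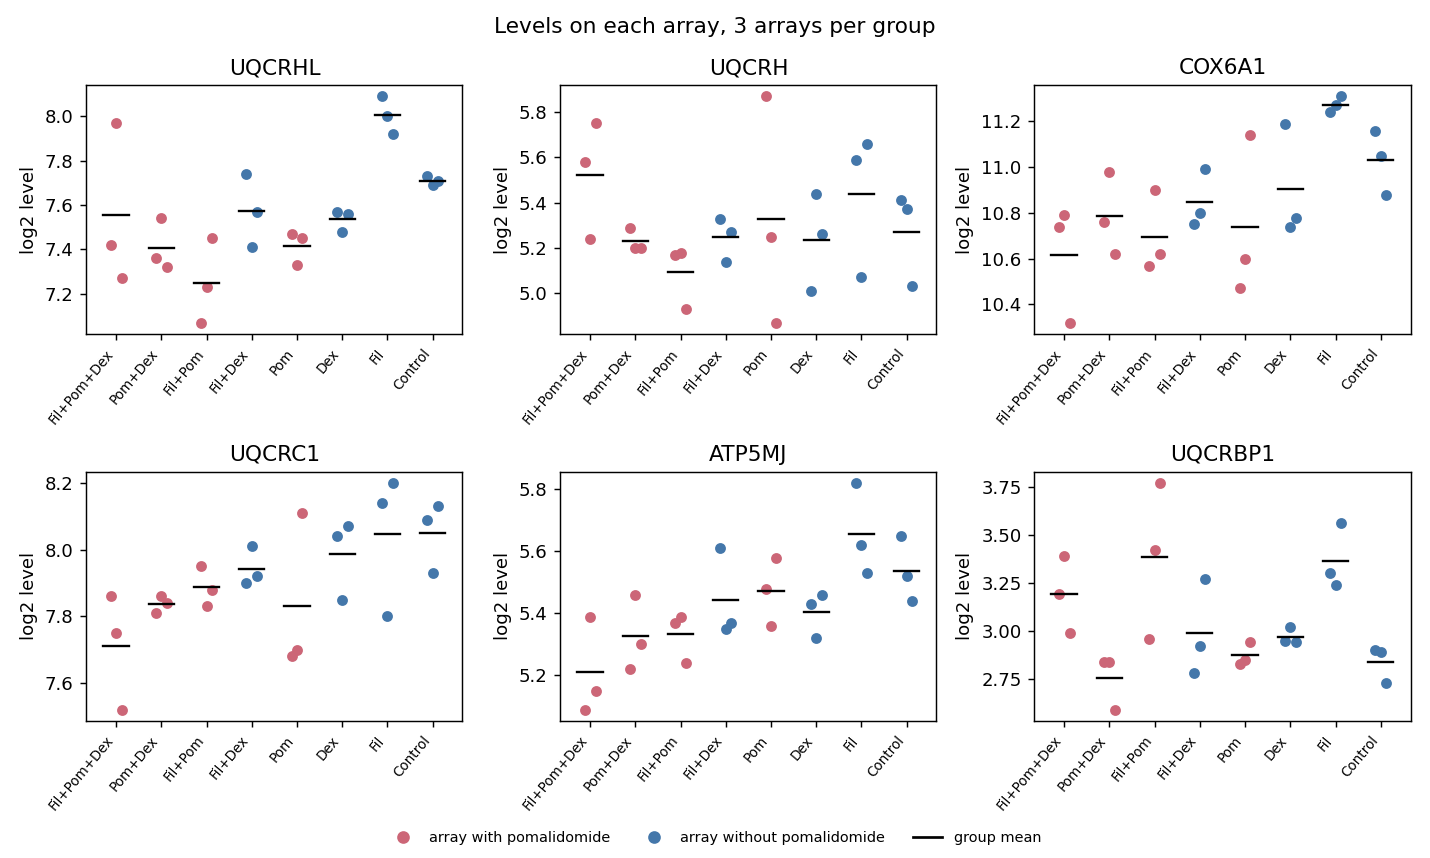
Log2 level on each array for UQCRHL, UQCRH, COX6A1, UQCRC1, ATP5MJ and UQCRBP1 (points are the 3 arrays of a group, red with and blue without pomalidomide, bars are group means; each panel has its own axis). UQCRHL and COX6A1 have their highest group mean with filanesib alone, and UQCRBP1 is high on most arrays with filanesib, whatever their colour.

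In complex IV, 1 of 17 members fell with pomalidomide. COX6A1, the common form of a nuclear-encoded subunit that adjusts the enzyme, read 10.74, 10.79 and 10.32 with all 3 drugs, 10.76, 10.98 and 10.62 with pomalidomide plus dexamethasone, 10.57, 10.90 and 10.62 with filanesib plus pomalidomide, and 10.47, 10.60 and 11.14 with pomalidomide. It read 10.75, 10.80 and 10.99 with filanesib plus dexamethasone, 11.19, 10.74 and 10.78 with dexamethasone, 11.24, 11.27 and 11.31 with filanesib, and 11.16, 11.05 and 10.88 in control. Of the 12 arrays with pomalidomide, 3 reached the range of the controls (10.88 to 11.16), the highest being replicate 3 of pomalidomide alone, so the arrays with and without the drug overlapped. The average change was -0.30 ± 0.08 (95% interval -0.47 to -0.14; 0.811-fold; limma adjusted p = 0.0304), negative in 4 of 4 backgrounds. Those changes ran from -0.12 ± 0.16 beside dexamethasone to -0.57 ± 0.16 beside filanesib.

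This call sat close to the threshold. It was kept in 14 of 24 fits that left out 1 array, with a change between -0.35 and -0.27, and adjusted p rose to as much as 0.0629 in the others. The 10 arrays whose removal ended it were replicate 1 of control, 3 of filanesib, 1 of dexamethasone, 1 of pomalidomide, 3 of filanesib plus dexamethasone, 1 and 3 of filanesib plus pomalidomide, 1 and 3 of pomalidomide plus dexamethasone, and 3 of the triple combination. A second COX6A1 probe set was dim, with a mean of 2.41, below the array medians, and its change of -0.01 ± 0.06 with pomalidomide gives no check of the brighter one.

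COX5B, a zinc-binding subunit on the matrix side, ran from 5.94 through 6.10 to 6.34 on pomalidomide arrays, against 6.12, 6.26 and 6.49 without. Its change of -0.16 ± 0.05 missed the threshold (limma adjusted p = 0.0865). It passed in 1 of the 24 fits that left out 1 array, at -0.18 and 0.0236 without replicate 3 of pomalidomide. In the others adjusted p rose to as much as 0.162. The other common isoforms had average changes with pomalidomide from -0.14 ± 0.08 for COX6B1 to 0.08 ± 0.07 for COX8A. COX5A stood at -0.11 ± 0.07, COX4I1 at -0.10 ± 0.07, COX6C at -0.09 ± 0.06, COX7A2 at -0.06 ± 0.06, COX7B at -0.02 ± 0.11 and COX7C at 0.02 ± 0.07. The 10 common isoforms had a median of -0.10, with 8 negative, and 1 past the threshold.

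The tissue-restricted isoforms gave 0 calls of 6 with any of the 3 drugs, and 4 of them (COX6B2, COX7A1, COX7B2 and COX8C) averaged 2.44 to 3.49, under the array medians. COX4I2, the lung form of subunit 4 known to respond to low oxygen, averaged -0.08 ± 0.08 with pomalidomide. The heart and muscle forms COX6A2 and COX7A1 averaged 0.00 ± 0.10 and 0.08 ± 0.07, and the testis forms COX6B2, COX7B2 and COX8C 0.01 ± 0.07, 0.06 ± 0.06 and 0.03 ± 0.06. Their median was 0.02 with pomalidomide, 4 of 6 positive. With dexamethasone, COX7B2 had the smallest unadjusted p of the 30 members. It read 2.41 at the lowest, 2.61 at the median and 2.73 at the highest with dexamethasone, against 2.62, 2.68 and 3.13 without, a change of -0.18 ± 0.06 with limma adjusted p = 0.531. Those readings lie under the array medians. COX7A2L averaged -0.07 ± 0.07 with pomalidomide.

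In complex V no member passed with any drug. ATP5MJ, a small proteolipid of the membrane part, read 5.09 at the lowest, 5.37 at the median and 5.58 at the highest with pomalidomide, against 5.32, 5.49 and 5.82 without. Its change was -0.17 ± 0.06 (limma adjusted p = 0.0837). It was also lower with dexamethasone, at 5.09, 5.36 and 5.61 against 5.24, 5.50 and 5.82 without, a change of -0.15 ± 0.06 that missed the threshold (adjusted p = 0.561). In each of the 4 backgrounds of either drug its sign was negative. The pomalidomide change passed in 1 of the 24 fits that left out 1 array, at -0.20 and adjusted p = 0.0476 without replicate 2 of the triple combination. In the others adjusted p rose to as much as 0.165. ATP5MK, which helps ATP synthase form dimers, averaged -0.02 ± 0.06 with pomalidomide. ATP5IF1, which blocks ATP synthase from running in reverse, averaged -0.02 ± 0.04 with pomalidomide, 0.02 ± 0.04 with filanesib and -0.07 ± 0.04 with dexamethasone.

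Among the genes filed under complex I, 0 of 4 passed with any drug. NDUFAF7, a methyltransferase that modifies a complex I subunit during assembly, averaged 0.14 ± 0.07 with filanesib (limma adjusted p = 0.45) and was higher in 4 of 4 backgrounds. The antisense RNA NDUFB2-AS1 averaged -0.16 ± 0.07 with filanesib (adjusted p = 0.373) and was lower in 4 of 4. NDUFAF8, a partner of another assembly factor, averaged -0.13 ± 0.06 with pomalidomide (adjusted p = 0.273), with arrays from 8.30 through 8.50 to 8.80, against 8.46, 8.68 and 8.81 without. NDUFA6-DT averaged 0.05 ± 0.08 with pomalidomide.

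The single filanesib call was UQCRBP1, a pseudogene of UQCRB. It read 3.19, 3.39 and 2.99 with all 3 drugs, 2.96, 3.42 and 3.77 with filanesib plus pomalidomide, 2.78, 2.92 and 3.27 with filanesib plus dexamethasone, and 3.30, 3.24 and 3.56 with filanesib. Without filanesib it read 2.84, 2.84 and 2.59 with pomalidomide plus dexamethasone, 2.83, 2.85 and 2.94 with pomalidomide, 2.95, 3.02 and 2.94 with dexamethasone, and 2.90, 2.89 and 2.73 in control. The range was wider with filanesib, and 3 of the 4 filanesib groups had their mean above all arrays without the drug. The average change was 0.37 ± 0.08 (95% interval 0.21 to 0.54; 1.3-fold; limma adjusted p = 0.0145). By background it was 0.53 alone, 0.51 beside pomalidomide, 0.44 beside both other drugs and 0.02 beside dexamethasone. All its readings except the 3.77 lie below the array medians, and the parent gene UQCRB averaged -0.06 ± 0.08 with filanesib, with arrays from 2.92 through 3.22 to 3.47, against 2.88, 3.25 and 3.67 without.

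Set against control 1 group at a time, with 3 arrays against 3, no member passed in any of the 7 treatments by limma. Beside these counts of 0, the share of all genes called was 0.255% with all 3 drugs, 0.161% with pomalidomide plus dexamethasone, 0.141% with filanesib plus pomalidomide, 0% with filanesib plus dexamethasone, 1.98% with pomalidomide, 0.00672% with dexamethasone and 0% with filanesib. At an unadjusted p under 0.05, members numbered 5 with all 3 drugs (16.7%, against 10.6% of all genes), 1 with pomalidomide plus dexamethasone (3.33% against 8.3%) and 2 with filanesib plus pomalidomide (6.67% against 7.6%). They numbered 1 with filanesib plus dexamethasone (3.33% against 6.03%), 4 with pomalidomide (13.3% against 16.5%), 1 with dexamethasone (3.33% against 3.9%) and 3 with filanesib (10% against 3.94%). The 7 comparisons share the control arrays. The triple combination against pomalidomide plus dexamethasone, the comparison that isolates added filanesib, also had 0 members called, beside 0.00672% of all genes, and 2 at an unadjusted p under 0.05 (6.67%, against 7.29% of all genes), UQCRBP1 at 0.44 ± 0.16 and NDUFA6-DT at -0.34 ± 0.16.

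With all 3 drugs against control, the members with the smallest p were ATP5MJ at -0.32 ± 0.11 (limma adjusted p = 0.259), UQCRC1 at -0.34 ± 0.12 (0.293) and COX6A1 at -0.41 ± 0.16 (0.338). With pomalidomide against control they were COX8A at -0.30 ± 0.13 (0.245), COX4I2 at -0.34 ± 0.15 (0.262) and COX7C at 0.30 ± 0.14 (0.281). In the pomalidomide group the signs of complex IV subunits were mixed, with 6 of 10 common isoforms above control.

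**Figure D3:**
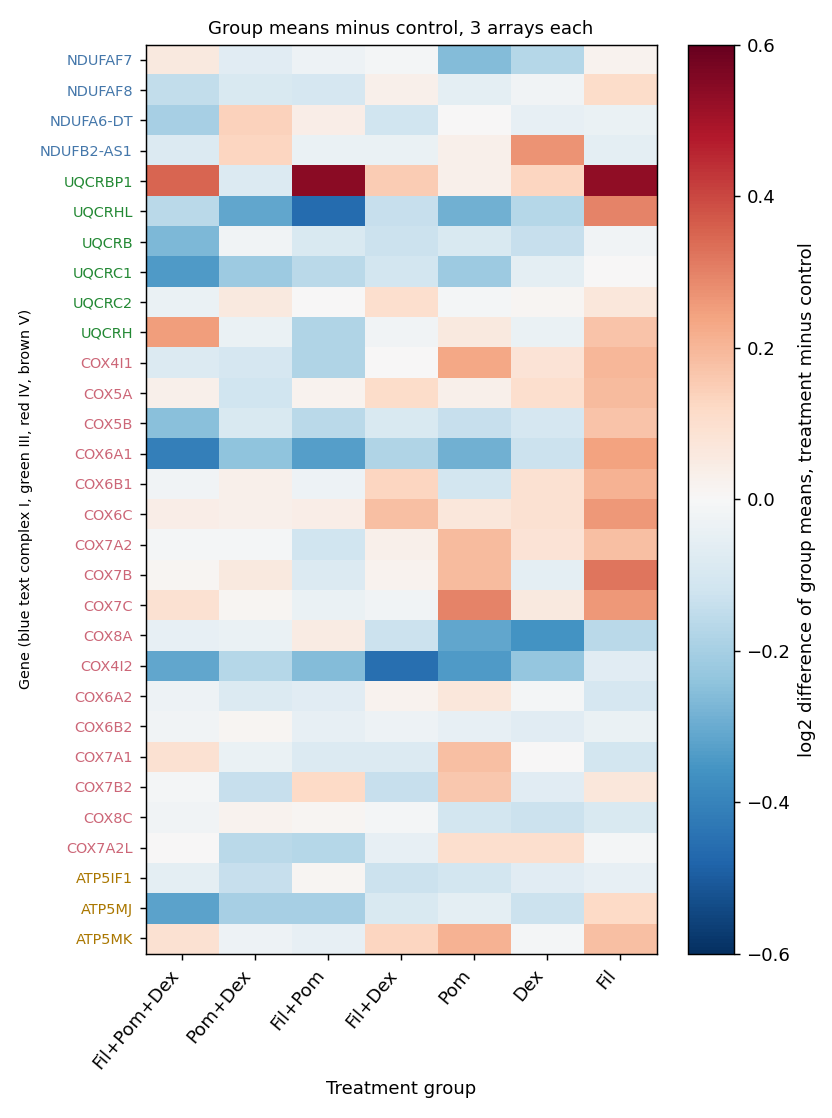
Group mean minus control mean on the log2 scale for the 30 genes (rows, by complex) in the 7 treatment groups (columns, 3 arrays each; red above control, blue below). The filanesib column is red for 9 of the 10 common complex IV isoforms, and none of the 7 columns holds a gene past the threshold.

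The filanesib-alone group held the highest of the 8 group means for 9 of 30 members (30%), against 14.8% of all genes, and for 6 of 10 common complex IV isoforms. The lowest mean lay in the triple combination for 9 members (30%, against 14.2% of all genes) and in filanesib plus pomalidomide for 8 (26.7%, against 11.3%). These shares are a description without a test. Against control, 9 of 10 common isoforms were higher with filanesib, with a median of 0.20 and 0 past the threshold. Of all 14884 genes 7346 were higher, with a median of -0.002. The isoforms were read on the same filanesib and control arrays, so they are not separate observations. Examples among them were COX7B at 0.32 ± 0.22, COX6C at 0.26 ± 0.12 and COX7C at 0.26 ± 0.14 (limma adjusted p = 0.999 for each).

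The gap between those groups was compared directly, in a comparison added after the data had been seen: filanesib plus pomalidomide against filanesib. Of 30 members 1 passed, UQCRHL, which fell by 0.75 ± 0.14 (0.593-fold; limma adjusted p = 0.019), beside 0.249% of all genes, and its 3 arrays with both drugs all lay below the 3 with filanesib. The call ended without replicate 1 of filanesib, without replicate 3 of filanesib and without replicate 1 of filanesib plus pomalidomide, where adjusted p reached 0.181. Members had a median of -0.17, with 21 of 30 negative, and all genes -0.01, with 52% negative. The comparison was picked where members lay highest and lowest. These counts and the separation of the UQCRHL arrays therefore describe that gap and add no support for it.

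Among the common complex IV isoforms, COX6A1 differed by -0.57 ± 0.16 (limma adjusted p = 0.145), COX4I1, which starts the assembly of the enzyme together with COX5A, by -0.38 ± 0.15 (0.33), COX5B by -0.33 ± 0.10 (0.198), COX7A2 by -0.30 ± 0.12 (0.344) and COX7C by -0.30 ± 0.14 (0.453). None passed. COX4I1 read 9.15, 9.15 and 9.26 with filanesib plus pomalidomide, against 9.70, 9.37 and 9.64 with filanesib. COX7A2 read 6.08, 6.09 and 6.09 with filanesib plus pomalidomide, against 6.41, 6.30 and 6.44 with filanesib. In both genes, as in COX6A1, COX5B, COX6C, COX7B and COX7C, the arrays of the pair did not overlap those of filanesib. How many of all genes separated in this way was not counted. The comparison was picked for this gap, so the separation adds no support for it. COX8A went the other way, at 10.76, 10.52 and 10.44 with filanesib plus pomalidomide, against 10.48, 10.18 and 10.43 with filanesib, a difference of 0.21 ± 0.13.

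Whether a drug acted differently beside another was tested as an interaction, also added after the data had been seen. None of the 30 members passed for any of the 3 pairs of drugs. The smallest p was that of UQCRHL for pomalidomide by dexamethasone, 0.45 ± 0.14 with unadjusted p = 0.00368 and limma adjusted p = 0.745. By background its change with pomalidomide was -0.29 alone, -0.75 beside filanesib, -0.13 beside dexamethasone and -0.02 beside both.

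**Figure D4:**
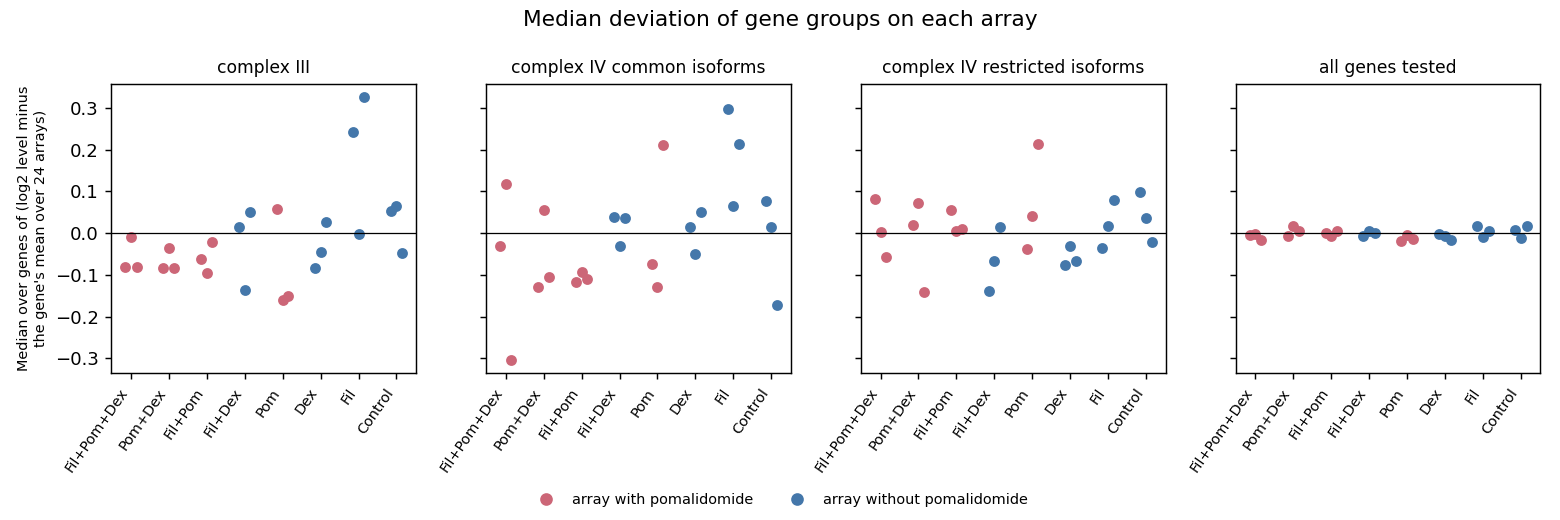
Median over genes of the log2 level minus each gene's own mean over 24 arrays, for complex III, the common and the restricted complex IV isoforms and all genes tested (points are arrays, 3 per group, red with and blue without pomalidomide). The common isoforms have their highest group mean with filanesib, where the arrays lie at 0.066 to 0.298 and overlap those of other groups. With all 3 drugs they spread from -0.304 to 0.117. The median over all genes stays within 0.018 of 0. It covers 14884 genes on arrays with distributions made alike, so it is no measure for the spread of 10 genes.

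As one summary per array, the 10 common complex IV isoforms averaged -0.07 ± 0.21 with all 3 drugs, -0.06 ± 0.10 with pomalidomide plus dexamethasone, -0.11 ± 0.01 with filanesib plus pomalidomide, 0.02 ± 0.04 with filanesib plus dexamethasone, 0.00 ± 0.18 with pomalidomide, 0.01 ± 0.05 with dexamethasone, 0.19 ± 0.12 with filanesib and -0.03 ± 0.13 in control (mean ± SD of the per-array medians, n = 3 arrays each). The spread among the 3 triple-combination arrays and among the 3 pomalidomide arrays was as wide as most differences between groups. The restricted isoforms ran from -0.06 ± 0.08 with filanesib plus dexamethasone to 0.07 ± 0.13 with pomalidomide.

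Other genes of mitochondria and glycolysis were listed with earlier results of these data known. Their calls were read beside those of all genes: 4.86% with pomalidomide (2.65% lower), 1.4% with filanesib and 0.0134% with dexamethasone. Of genes that build complex IV without belonging to it, 18 of 21 listed were measured and 0 passed with any drug. Of 7 further complex III genes listed, 6 were measured and 0 passed. All 6 were negative with pomalidomide, among them cytochrome c1 (CYC1) at -0.19 ± 0.08 (limma adjusted p = 0.221). Of 8 listed genes of cytochrome c and nucleotide exchange, 3 were measured. Among them VDAC3, a channel of the outer membrane, fell by 0.23 ± 0.07 with pomalidomide (adjusted p = 0.0383). Of 17 listed genes of the citric acid cycle and pyruvate dehydrogenase, 10 were measured and 0 passed with any drug. Of 19 listed glycolysis genes only 9 were measured, and 2 of these fell with pomalidomide: LDHA, which makes lactate, by 0.29 ± 0.07 (adjusted p = 0.0201) and GPI by 0.22 ± 0.06 (0.0228). Of the 9, 8 were negative, and 66.7% had an unadjusted limma p under 0.05, against 17.3% of all genes.

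Markers of other cell types were read beside the pomalidomide calls. Of 10 macrophage markers 4 were measured. The mean log2 level of these 4 on an array was 4.91 to 5.24 in the 4 groups with pomalidomide and 4.74 to 5.05 in those without. The median of their 4 average changes with pomalidomide was only 0.01, with 2 negative. CD68 rose by 0.99 ± 0.09 (limma adjusted p = 4.31e-07), while the other 3 measured markers averaged 4.37 for CSF1R, 3.07 for CD14 and 2.95 for CD163, and did not pass the test with pomalidomide. Of the 8 measured plasma cell markers, 1 was called lower with pomalidomide and 1 higher, beside 4.86% of all genes called. They were IRF4, lower by 0.54 (limma adjusted p = 0.00557), and CD38, higher by 0.18 (0.0304), and 6 did not pass. The part of these shifts in the results for UQCRHL and COX6A1 was not tested.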

How the data were processed

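Plasmacytoma RNA was measured on 24 Affymetrix arrays of human genes, 3 per group. The deposited data are log2 levels for each probe set. Per the submitters' processing notes, the authors used RMA and Affymetrix Expression Console, whose versions, like any batch, are not given in the sources used here. RMA makes array distributions alike, which hides a shift common to most genes.

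Of 53617 probe sets, 16098 had 1 gene symbol in the platform annotation. The other 37519, with no symbol or more than 1, were left out. Where a gene had several probe sets (779 genes), the one with the highest mean over 24 arrays was used, giving 14884 genes. With limma 3.58.1 in R 4.3.3, all 24 arrays entered 1 linear model of group means (16 residual degrees of freedom). Tests were moderated with eBayes, two-sided and adjusted by Benjamini-Hochberg over all 14884 genes, with a threshold of 0.05. The number of arrays limits precision: the median standard error was 0.07 for an average effect and 0.14 between 2 groups. The fit was tested on simulated data.

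The members, the lists and the tests were chosen with earlier results of these data known. Members named were those past the threshold, the 2 with the smallest p in each complex per drug, the first of the F test and a fixed list. Other genes named were up to 3 past the threshold per list. COX6B1, COX6C, COX7B, COX7C, COX4I2 against control, CYC1 and the genes in the added comparison were named after their values were seen. Same-numbered arrays showed no common deviation (84 pairs, correlations from -0.32 to 0.31, median -0.02), so the main fit did not pair them. These correlations cannot exclude a pairing or a batch. No array was dropped or imputed.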

Additional observations from a re-analysis of the deposited data

How the results depend on the processing

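The counts of members called were recomputed without each of the 24 arrays and under up to 11 other settings, among them the omission of replicates 1 and 3 of pomalidomide alone. No called value changed sign, and the 7 comparisons with control, the triple combination against pomalidomide plus dexamethasone and the dexamethasone average effect kept 0 members called throughout. The pomalidomide average effect (2 members) gave 1 after a further quantile normalisation, 1 with all probe sets tested, 0 against a minimum change of 1.2-fold, 5 with array weights (adding ATP5MJ, COX5B and UQCRC1) and 4 without those replicates of pomalidomide alone. Leaving out 1 array gave 1 to 4, the highest without replicate 3 of pomalidomide. The filanesib average effect (1 member) gave 0 with dim genes left out, which drops UQCRBP1 itself, 0 with all probe sets tested and 0 at 1.2-fold, and stayed at 1 to 1 on leaving out 1 array. The F test (1 member) gave 0 after quantile normalisation, median centring, all probe sets or the omission of those replicates, 4 with array weights, and 0 to 2 on leaving out 1 array. Filanesib plus pomalidomide against filanesib (1 member) gave 0 with all probe sets tested, 0 with only the compared groups and 0 at 1.2-fold, 3 with array weights, and 0 to 1 on leaving out 1 array. With the replicate number as a block (replicate block), the F test fell to 0, and the block changed no other count: 2 for pomalidomide, 1 for filanesib, 0 for dexamethasone and 1 for filanesib plus pomalidomide against filanesib. The cause of these changes was not tested beyond the dropped gene. UQCRHL kept its pomalidomide call in 24 of 24 fits without 1 array and in 9 of 10 other settings, COX6A1 in 14 and 7, and UQCRBP1 its filanesib call in 24 of 24 and 7 of 9. Members that were not called changed sign under some setting in 15 of 29 cases with filanesib, 11 of 28 with pomalidomide and 13 of 30 with dexamethasone, so their signs carry little weight. The low signal of COX8C, COX7B2, UQCRBP1, UQCRB, COX6B2 and COX7A1, whose means lie under the array medians, limits what their values can show.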

Other observations

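Mitochondrial ribosomal protein genes, which make the translation machinery for the mitochondrially encoded subunits, were read with the same fit. Of 78 measured, 2 fell with pomalidomide, MRPL22 by 0.30 ± 0.08 (limma adjusted p = 0.0214) and MRPL37 by 0.19 ± 0.05 (0.0401), beside 2.65% of all genes called lower, with 65 of 78 negative and a median of -0.08 against -0.01 for all genes. With filanesib 1 rose, MRPL51 by 0.22 ± 0.06 (adjusted p = 0.0451), beside 1.25% of all genes called higher, with 57 of 78 positive and a median of 0.06 against 0.00 for all genes. With dexamethasone 0 passed and the median was -0.01.

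Of 52 cytosolic ribosomal protein genes measured, 1 fell with pomalidomide, RPS26 by 0.44 ± 0.09 (limma adjusted p = 0.00487), beside 2.65% of all genes called lower. With filanesib 1 rose, RPL39L, a paralogue of RPL39, by 0.53 ± 0.08 (adjusted p = 0.000715), beside 1.25% of all genes called higher. Both have near-identical copies in the genome, so their probes may bind more than 1 transcript. Of 16 listed regulators of mitochondrial biogenesis, 7 were measured. Of these 1 rose with filanesib, NRF1 by 0.27 ± 0.06 (adjusted p = 0.00936), beside 1.25% of all genes called higher. NRF1 is a transcription factor whose known targets include respiratory chain genes. In pomalidomide against control 2 of the 7 fell, ESRRA by 0.62 ± 0.16 (adjusted p = 0.0453) and MYC by 0.51 ± 0.13 (0.0404), beside 1.98% of all genes called, and the average effect of pomalidomide called 0 of 7. The average effect of filanesib called 0 of the 10 common complex IV isoforms, whose median change was 0.01.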
